A study of Mus musculus with 10 samples.

Results

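The 32 granulocyte and macrophage genes described here, of the 25579 genes measured, are a listed set of myeloid genes that were followed across bone marrow B-cell progenitors of 4 Pax5 genotypes. They form a list of named genes, set with earlier results of these data known, and they cover granule proteins, calprotectin, C/EBP transcription factors, the Fc receptor complex, surface receptors, macrophage proteins and a pair of phospholipid- or sugar-binding proteins. RNA-seq was performed on ex vivo sorted cells of C57BL/6 mice, with 2 libraries per genotype and 8 libraries in all. Pro-B cells were Pax5(+/+), Pax5(+/-), with 1 null allele, or Pax5(R31Q/-), with a null allele and an allele coding for a protein with an arginine-to-glutamine change in the DNA-binding paired domain. The Pax5(fl/fl) Vav-Cre cells, which the labels call progenitor cells rather than pro-B cells, came from mice in which both Pax5 alleles are flanked by loxP sites and the Vav-Cre transgene drives recombination in all haematopoietic cells. The ages of the mice, and whether the libraries of a genotype came from separate mice, are not given in the sources used here, so the p-values measure the spread between these libraries, which may be technical. The study sorted pro-B cells by surface markers, among them the presence of B220 and Kit and the absence of CD2, IgM and IgD. The gate used for the Pax5(fl/fl) Vav-Cre cells is not given in the sources used here. Deposited Pax5 ChIP-seq peak lists of short-term cultured Rag2(-/-) and Pax5(R31Q/-) pro-B cells were used as well.

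Pax5 commits progenitors to the B-cell lineage by activating B-cell genes and by repressing genes of other lineages, among them receptors and signaling adaptors of myeloid cells. Granulocyte development is driven by C/EBP factors and PU.1. Promyelocytes make the azurophil granule proteases first, and the proteins of specific and gelatinase granules follow in later precursors, so that mRNAs of both kinds are very abundant in neutrophil precursors of the bone marrow. Progenitors without Pax5 remain able to form myeloid cells when given the matching cytokines.

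Values are given as TPM, in which read numbers are corrected for gene length and for the size of the library, so that levels of different genes can be compared. The 32 genes together took between 0.111% and 0.302% of the TPM in the 6 libraries of the other genotypes, 0.503% in Pax5(fl/fl) Vav-Cre library 1 and 0.141% in library 2. The depth on genes was 21625407 reads in library 1 and between 29916566 and 34488454 reads in the other 7 libraries. Pax5 itself was at 431 ± 18.4 TPM (SD, n = 2) in Pax5(+/+), 279 ± 10.3 in Pax5(+/-), 299.6 ± 9.29 in Pax5(R31Q/-) and 1325 ± 118 in Pax5(fl/fl) Vav-Cre cells, and a value per gene does not show whether the deleted part was read. The 10 B-lineage markers summed to 8855 and 7934 TPM in libraries 1 and 2 and to between 15170 and 19880 TPM in the others, and 9 of the 10 were below all 6 of those libraries.

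The Pax5(fl/fl) Vav-Cre libraries stood apart from each other in these genes. That they differ in myeloid RNA was known beforehand, so the counts below describe the known difference and do not test it. Of the 32 genes, 19 were more than 2-fold higher in library 1 than in library 2, counted on the log2(TPM + 1) scale, and 0 were more than 2-fold higher in library 2. Among the 13436 genes tested, 1.77% passed the same fold in library 1 and 4.33% in library 2. The median absolute difference between the libraries was 1.79 on the log2 scale for the 32 genes and 0.26 for all genes tested. No gene of the set differed 2-fold between the Pax5(+/+) libraries (background 0.997% and 1.15% in the 2 directions) or between the Pax5(R31Q/-) libraries (0.581% and 0.819%). For Pax5(+/-), 0 genes were 2-fold higher in library 1 (background 0.521%) and 3 in library 2 (0.975%), namely S100a8, S100a9 and Retnlg. Among other granulocytes, the 3 eosinophil markers summed to 92.5 TPM in Pax5(fl/fl) Vav-Cre library 1, 21.9 TPM in library 2 and 61.1 to 151 TPM in the others, and the 6 basophil and mast cell markers to 25.9, 19.3 and 6.96 to 15 TPM. The 3 megakaryocyte markers summed to 10.4 TPM in library 1, 2.25 TPM in library 2 and 2.35 to 6.29 TPM in the others, and the 7 erythroid markers in the files to 40.8, 14.3 and 77.6 to 133 TPM, with Hba-a2 and Hbb-bs listed at 0 in every library. The part of these cells in the split was not tested. All of these are differences between single libraries, with no replicate on either side and no test. In bulk RNA, a smaller number of cells of a type and less RNA in each of them cannot be told apart.

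**Figure D1:**
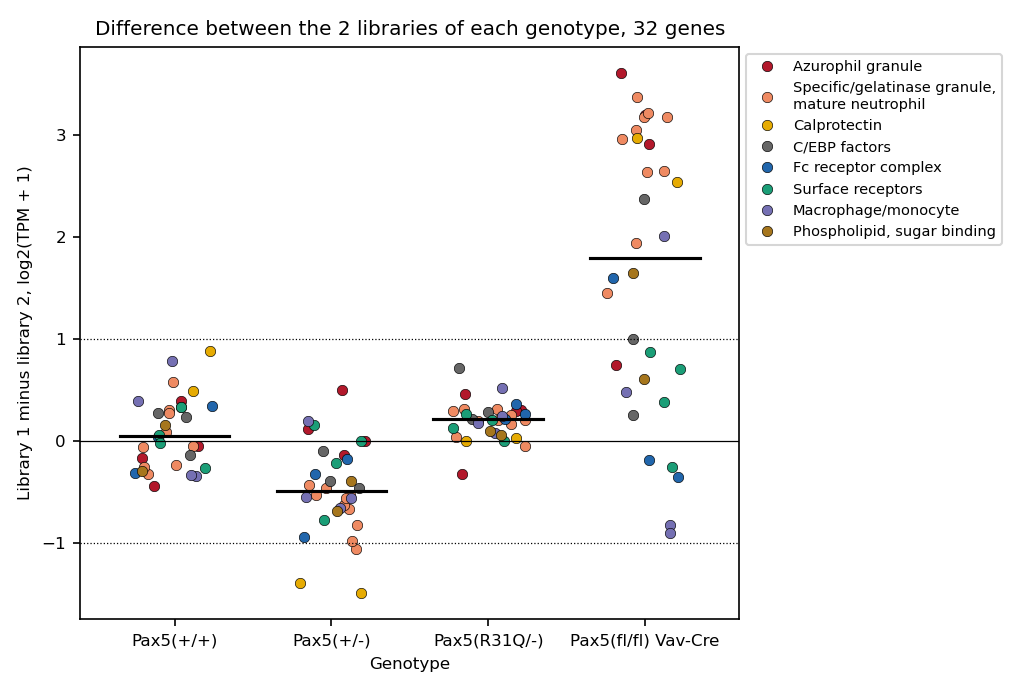
Each point is one of the 32 genes, placed by the log2(TPM + 1) of library 1 minus that of library 2 (vertical axis) for each genotype (horizontal axis). Colors give the group of the gene, the thick line is the median over the genes and the dotted lines mark a 2-fold difference. The median is 1.79 in Pax5(fl/fl) Vav-Cre, where 19 genes lie above the upper dotted line, and between -0.49 and 0.21 in the other genotypes.

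The 31 genes tested fell into contrasting patterns over the 8 libraries. The gap between Pax5(fl/fl) Vav-Cre libraries 1 and 2 was known beforehand, so counts that rest on it describe it and do not test it. Library 1 was the highest and library 2 the lowest of all 8 for 15 genes, an order found for 0.744% of all genes tested. These were the azurophil genes Mpo, Elane and Prtn3, the later granule genes Ngp, Camp, Ltf, Lcn2, Mmp9, Cd177, Retnlg and Hp, and S100a9, Cebpe, Fcgr3 and Lyz2. Both Pax5(fl/fl) Vav-Cre libraries were above all others for 8 genes (background 20.9%), which were Ctsg, Cebpa, Fcer1g, Tyrobp, Cd33, Ly6c2, Cd68 and Cybb. Both were below all others for Anxa1 alone (background 28.2%). Counted singly, library 1 was the highest of the 8 for 20 genes (background 13%), and library 2 was the lowest for 20 (9.49%). The gene left out of the test was Cd14, a co-receptor for lipopolysaccharide, which stayed at or below 0.36 TPM and 7 reads in every library.

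**Figure D2:**
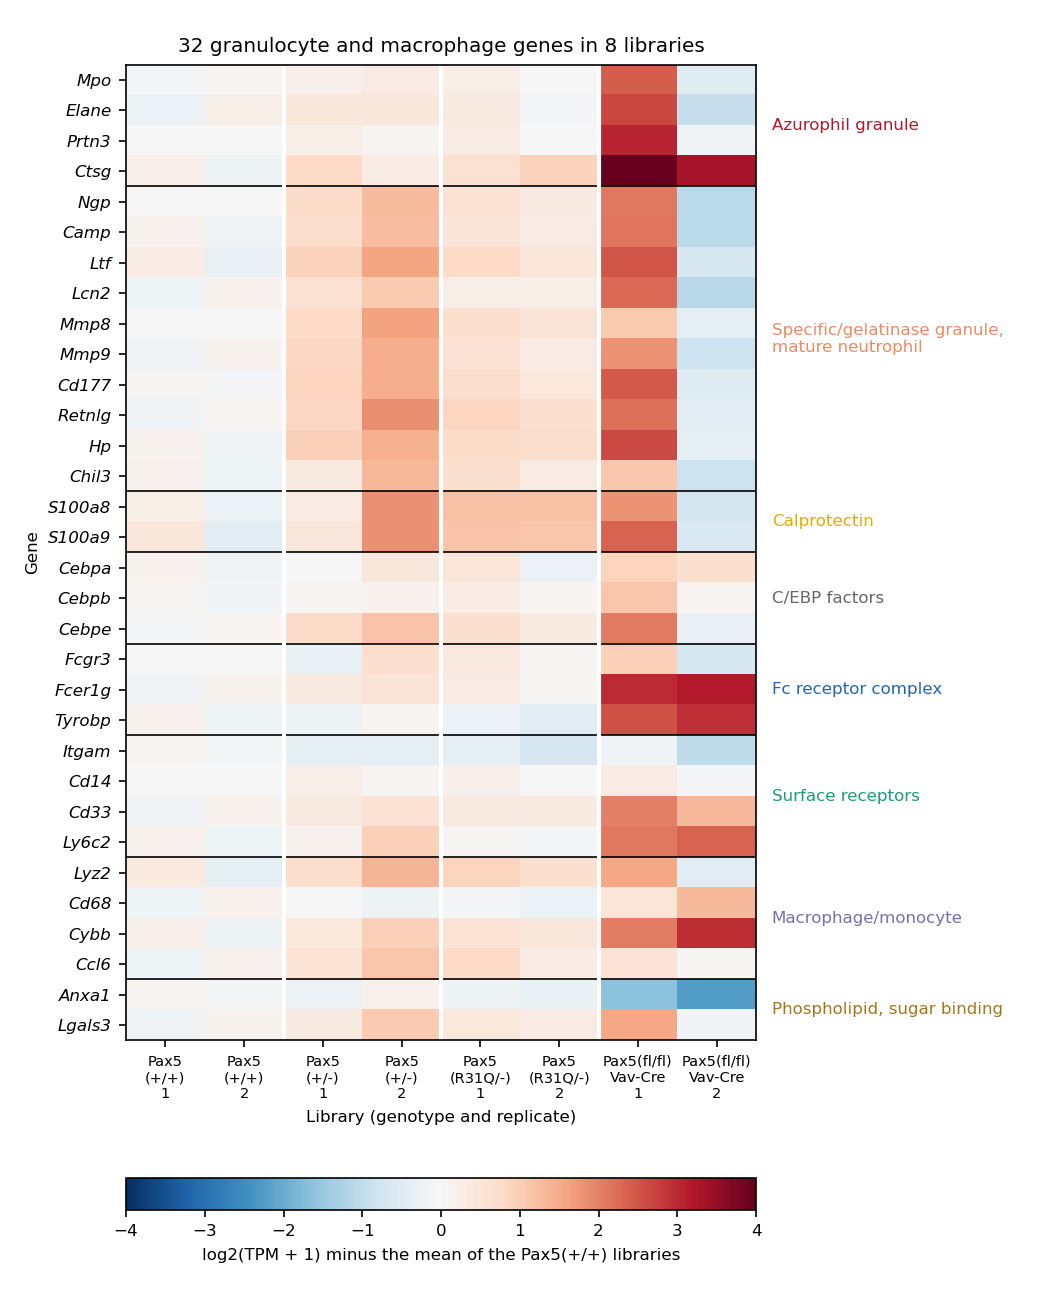
Rows are the 32 genes by group and columns the 8 libraries. Color gives log2(TPM + 1) minus the mean of the Pax5(+/+) libraries, with lower values in blue and higher values in red. Most granule genes are red in Pax5(fl/fl) Vav-Cre library 1 and blue in library 2, Ctsg, Fcer1g, Tyrobp, Cd33, Ly6c2 and Cybb are red in both, and Anxa1 is blue in both.

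The azurophil granule genes code for myeloperoxidase, which makes hypochlorous acid, and for the serine proteases neutrophil elastase, proteinase 3 and cathepsin G. The 250 bases before their transcription start sites are shown because Ctsg parted from the others in the data and each of the promoters holds the PU.1 motif GAGGAAG. Capitals mark the motif on either strand, and sequences and coordinates are from RefSeq (GRCm38.p6), 5′ to 3′ toward the gene.
Mpo, chr11:87793534-87793783, plus strand: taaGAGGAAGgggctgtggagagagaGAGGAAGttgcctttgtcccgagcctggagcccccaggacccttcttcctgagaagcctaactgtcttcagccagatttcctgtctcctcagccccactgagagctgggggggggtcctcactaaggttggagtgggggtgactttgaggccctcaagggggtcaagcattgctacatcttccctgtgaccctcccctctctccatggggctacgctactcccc
Elane, chr10:79886062-79886311, plus strand: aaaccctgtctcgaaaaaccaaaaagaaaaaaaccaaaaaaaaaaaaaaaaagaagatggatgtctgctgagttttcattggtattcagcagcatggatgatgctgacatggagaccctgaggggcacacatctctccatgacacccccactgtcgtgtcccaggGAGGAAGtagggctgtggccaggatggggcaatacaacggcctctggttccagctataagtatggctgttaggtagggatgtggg
Prtn3, chr10:79879417-79879666, plus strand: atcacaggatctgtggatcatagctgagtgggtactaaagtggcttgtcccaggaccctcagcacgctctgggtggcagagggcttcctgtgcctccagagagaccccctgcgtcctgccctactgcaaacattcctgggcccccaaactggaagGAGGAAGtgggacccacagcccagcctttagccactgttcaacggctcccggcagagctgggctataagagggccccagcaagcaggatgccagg
Ctsg, chr14:56102575-56102824, minus strand: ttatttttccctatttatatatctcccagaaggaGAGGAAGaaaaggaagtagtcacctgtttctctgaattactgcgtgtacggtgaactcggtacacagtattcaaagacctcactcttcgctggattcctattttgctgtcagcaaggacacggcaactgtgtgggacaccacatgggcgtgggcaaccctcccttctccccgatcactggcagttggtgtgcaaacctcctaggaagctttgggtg

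Elane was at 11.6 and 16.0 TPM in Pax5(+/+), 19.1 and 19.1 in Pax5(+/-), 17.9 and 12.8 in Pax5(R31Q/-), and 92.7 and 6.69 in the Pax5(fl/fl) Vav-Cre libraries. Library 1 was thus above and library 2 below every other library, with a ratio of 13.8 between them. Mpo had the same order, with 132 TPM in library 1, 16.7 TPM in library 2 and 22.4 to 30.2 TPM in the other 6, and it overlaps Gm34064 on the opposite strand. Prtn3, which lies beside Elane on chromosome 10, was at 92.7 TPM in library 1 and at 9.27 TPM in library 2, just under the 10.1 to 12.8 TPM of the others. Ctsg differed from these genes. It was at 4.03 and 2.83 TPM in Pax5(+/+), 6.57 and 4.36 in Pax5(+/-), 5.68 and 7.36 in Pax5(R31Q/-), and 71.7 and 42.4 TPM in the Pax5(fl/fl) Vav-Cre libraries, far above the other genotypes in both. The ratio of Ctsg to Mpo in TPM was 0.54 in library 1 and 2.55 in library 2, against 0.11 to 0.32 in the other libraries.

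The genes of specific and gelatinase granules and of mature neutrophils include neutrophilic granule protein (Ngp), the antimicrobial peptide precursor Camp, lactoferrin (Ltf), the siderophore-binding lipocalin Lcn2, the collagenase Mmp8 and the gelatinase Mmp9. Cd177 is a neutrophil surface protein, Hp codes for haptoglobin, Retnlg for a resistin-like secreted protein and Chil3 for a chitinase-like lectin. The promoters of Ngp and Lcn2 are printed because these genes had the highest levels in the group and hold the C/EBP motif TTGCNNAA, which Lcn2 combines with GAGGAAG. Capitals mark both motifs, with source and direction as above.
Ngp, chr9:110419558-110419807, plus strand: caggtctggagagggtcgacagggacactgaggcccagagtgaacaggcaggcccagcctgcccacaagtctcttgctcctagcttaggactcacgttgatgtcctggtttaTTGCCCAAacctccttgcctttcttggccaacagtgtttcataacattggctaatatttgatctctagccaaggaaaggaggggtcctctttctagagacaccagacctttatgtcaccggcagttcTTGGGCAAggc
Lcn2, chr2:32387740-32387989, minus strand: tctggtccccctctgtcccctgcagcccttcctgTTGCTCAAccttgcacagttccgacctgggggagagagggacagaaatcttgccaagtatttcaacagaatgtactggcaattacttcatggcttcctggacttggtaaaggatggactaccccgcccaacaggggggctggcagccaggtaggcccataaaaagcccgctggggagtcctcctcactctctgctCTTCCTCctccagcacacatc

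Ngp was at 182 and 189 TPM in Pax5(+/+), 307 and 443 in Pax5(+/-), 275 and 239 in Pax5(R31Q/-), and 804 and 87.9 in the Pax5(fl/fl) Vav-Cre libraries. Lcn2 was at 80.7 and 101 TPM in Pax5(+/+), 138 and 186 in Pax5(+/-), 106 and 110 in Pax5(R31Q/-), and 439 and 41.5 TPM in the Pax5(fl/fl) Vav-Cre libraries. In both genes Pax5(+/+) lay below the other pro-B cells, library 1 above them and library 2 below all others. The 10 genes of the group summed to 465 and 462 TPM in Pax5(+/+), 768 and 1156 in Pax5(+/-), 682 and 604 in Pax5(R31Q/-), and 2114 and 236 TPM in libraries 1 and 2. Over the 10 genes, library 1 was 2.18 to 6.79 times and library 2 0.46 to 0.72 times the mean of Pax5(+/+). Mmp8 and Chil3 were the genes of this group in which library 1 was not the highest. Mmp8 reached 16.4 TPM and Chil3 40.7 TPM in Pax5(+/-) library 2, against 10.9 and 34.1 TPM in Pax5(fl/fl) Vav-Cre library 1. Mmp8 overlaps Gm31751 on the opposite strand, and Chil3 has close paralogs that may share its reads.

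S100a8 and S100a9 code for the subunits of calprotectin, a calcium- and metal-binding protein that fills the cytosol of neutrophils. S100a9 was at 292 and 158 TPM in Pax5(+/+), 294 and 773 in Pax5(+/-), 472 and 461 in Pax5(R31Q/-), and 1105 and 140 in the Pax5(fl/fl) Vav-Cre libraries. S100a8 followed with 159 and 113, 169 and 475, 305 and 305, and 471 and 80.2 TPM in the same order. Library 2 of Pax5(+/-) and library 1 of Pax5(fl/fl) Vav-Cre were the high samples, and Pax5(fl/fl) Vav-Cre library 2 was the lowest of all. The high libraries differed in the azurophil genes. Mpo, Elane and Prtn3 summed to 20.1 TPM per 100 TPM of calprotectin in Pax5(fl/fl) Vav-Cre library 1 and to 4.85 in Pax5(+/-) library 2, with 6.04 to 19.1 in the other 6 libraries. In Pax5(+/-), library 2 was 2.63 to 2.82 times library 1 for calprotectin, 1.35 to 2.10 times for the 10 later granule genes and 0.66 to 1.10 times for the 4 azurophil genes.

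**Figure D3:**
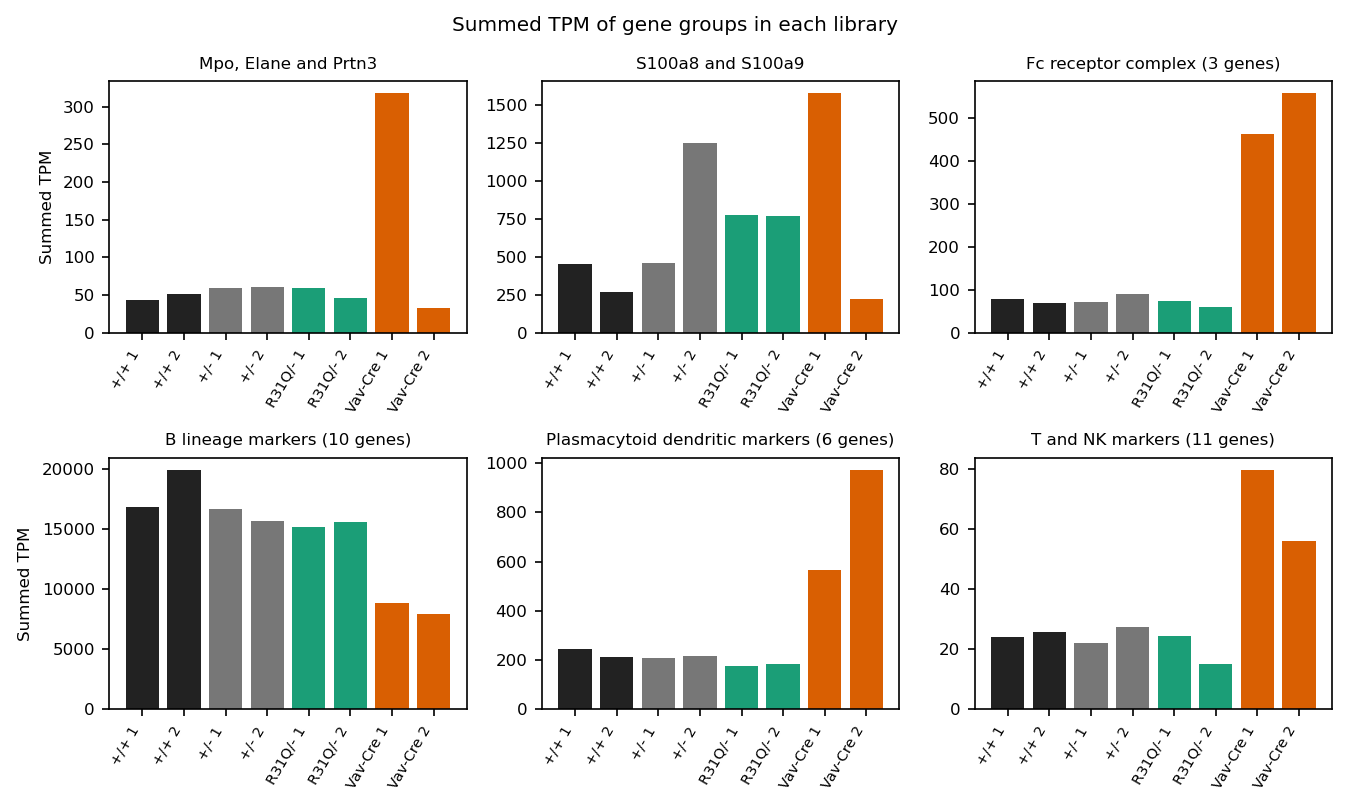
Bars give the summed TPM (vertical axes, from 0) of 6 gene groups in each of the 8 libraries (horizontal axes), colored by genotype. Mpo, Elane and Prtn3 sum to 317.5 TPM in Pax5(fl/fl) Vav-Cre library 1 and 32.6 TPM in library 2. The group labeled Fc receptor complex sums to 462 and 557 TPM in these libraries. Most of it is Tyrobp, at 298 and 380 TPM, and Fcer1g, at 153 and 174 TPM, whereas Fcgr3 is at 11.9 and 3.24 TPM. B-lineage markers are low, and plasmacytoid dendritic and T and NK markers high, in both libraries.

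Tests between genotypes were run with limma on log2(TPM + 1) over all 13436 genes with at least 1 TPM in any library, with the spread shared across the 4 genotypes and p-values adjusted by the Benjamini-Hochberg method. Each of the 31 genes tested also had at least 1 TPM in Pax5(+/+). Calling a gene required an adjusted p under 0.05, a difference over 3-fold on the log2(TPM + 1) scale and a mean above 5 TPM in a genotype. A two-sided exact permutation test of 2 libraries against 2 cannot go below p = 0.333, so the p-values depend on how limma pools the variance of the genes.

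Against Pax5(+/+), 7 of the 31 genes were higher and 1 was lower in Pax5(fl/fl) Vav-Cre cells at an adjusted p under 0.05 from limma, where 16.2% and 19.7% of all genes were. By the full criteria 6 were called higher (background 2.87%) and 1 lower (3.45%). The median log2 difference over the 31 genes was 0.87, beside -0.11 over all genes. The comparison pooled libraries that differed severalfold for most granule genes. Mpo, for example, had a log2 difference of 0.97 with a standard error of 0.76 (adjusted p = 0.35 from limma), and Ngp one of 0.52 with a standard error of 0.84 (adjusted p = 0.65). The libraries were also compared with Pax5(+/+) separately, each lone library being assumed to vary like the other genotypes. That they differ in myeloid RNA was known when this split was chosen, so the separate counts describe the known difference and do not test it, and both share the Pax5(+/+) libraries.

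With library 1 alone, 23 of the 31 genes were higher and 1 was lower at an adjusted p under 0.05 from limma (background 16.4% and 31.3%), and 19 were called higher and 1 lower (3.12% and 4.14%). The median log2 difference was 2.06, beside -0.22 for all genes. With library 2 alone, 7 genes were higher and 6 lower (background 17.1% and 15.1%), and 5 were called higher and 1 lower (3.19% and 3.18%), with a median of -0.44 beside 0.01. The genes lower in library 2 were Anxa1, Itgam, Ngp, Camp, Lcn2 and Elane. Elane had a log2 difference of 2.68 in library 1 and of -0.93 in library 2. Ngp, Camp and Lcn2 had log2 differences of 2.11, 2.15 and 2.27 in library 1 and of -1.07, -1.07 and -1.10 in library 2. Called higher in both separate fits were 5 genes, Ctsg, Fcer1g, Tyrobp, Ly6c2 and Cybb (background 2.34%), and called lower in both was 1, Anxa1 (2.75%). Cd33 passed the adjusted p in both but had a log2 difference of 1.30 in library 2, under the fold required on that scale.

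**Figure D4:**
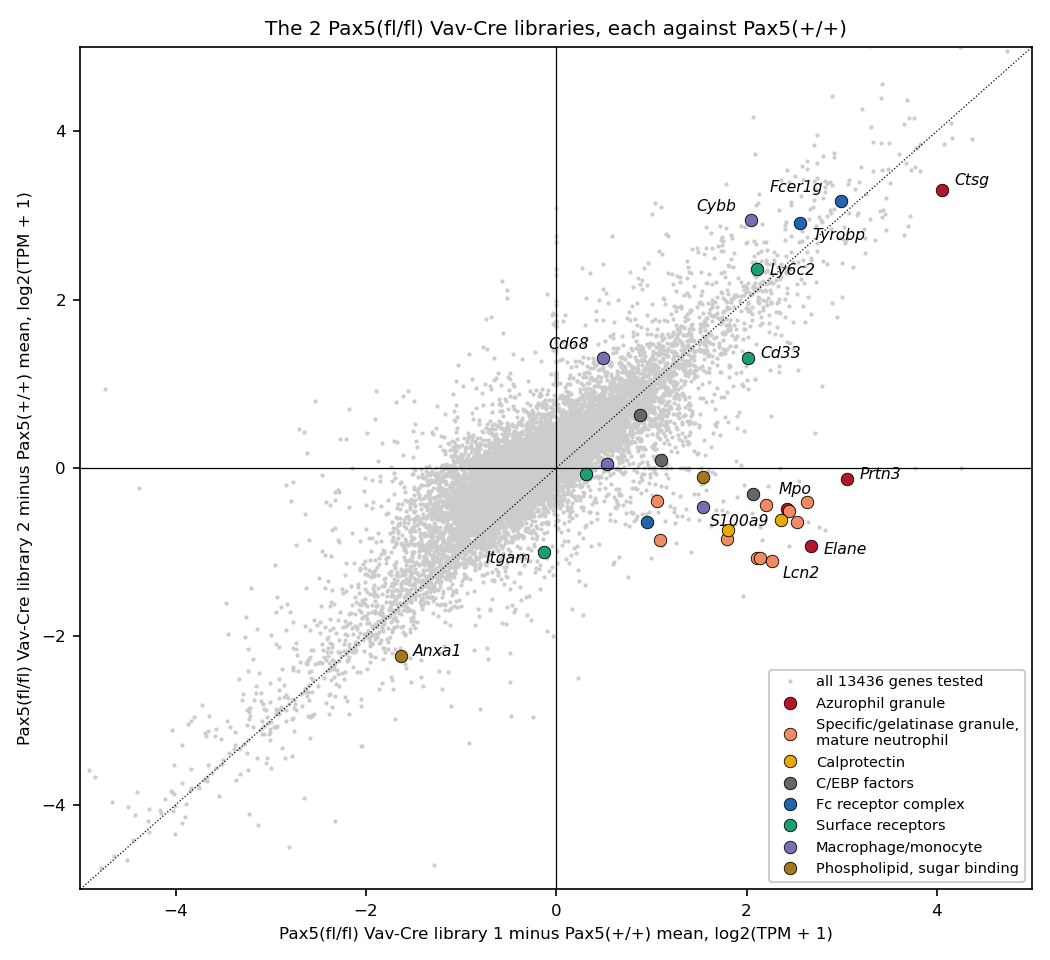
Points give the log2(TPM + 1) of Pax5(fl/fl) Vav-Cre library 1 (horizontal axis) and library 2 (vertical axis), each minus the mean of the Pax5(+/+) libraries, for the 13436 genes tested (gray) and the 32 genes (colored by group). The dotted line marks equal differences. The axes share the Pax5(+/+) mean, which alone stretches points along that line. Granule genes lie to the lower right, at up to 3.06 in library 1 (Prtn3) and down to -1.10 in library 2 (Lcn2), whereas Ctsg, Fcer1g, Tyrobp, Cybb and Ly6c2 lie to the upper right and Anxa1 to the lower left.

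Of the genes grouped as Fc receptor complex, Fcer1g and Tyrobp were above all other genotypes in both Pax5(fl/fl) Vav-Cre libraries and Fcgr3 was not. Fcer1g codes for the common gamma chain, which carries the signaling motif of several Fc receptors. It was at 16.4 and 20.6 TPM in Pax5(+/+), 23.7 and 26.9 in Pax5(+/-), 23.3 and 19.2 in Pax5(R31Q/-), and 153 and 174 TPM in Pax5(fl/fl) Vav-Cre, with no overlap between the last and the other genotypes. The difference from Pax5(+/+) was 8.85-fold in mean TPM, with a log2 difference of 3.08 (standard error 0.16, adjusted p = 1.81e-05 from limma). Tyrobp codes for DAP12, an adaptor of activating receptors on myeloid and NK cells. It was at 56.2 and 44.1, 43.1 and 54.0, 42.0 and 36.1, and 298 and 380 TPM in the same order, a log2 difference of 2.73 (standard error 0.19, adjusted p = 5.07e-05 from limma). Fcgr3, the ligand-binding chain that partners with Fcer1g, had another order. It was at 11.9 TPM in library 1 and 3.24 TPM in library 2, around the 4.57 to 9.65 TPM of the other genotypes (log2 difference 0.16, adjusted p = 0.83 from limma).

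Ctsg had the largest log2 difference of the 31 genes, 3.68 (standard error 0.30, adjusted p = 0.000105 from limma), or 16.6-fold in mean TPM, with 35 to 100 reads per library in the other genotypes and 718 and 598 reads in Pax5(fl/fl) Vav-Cre. Cybb, the membrane subunit of the phagocyte NADPH oxidase, was at 9.70 and 7.14 TPM in Pax5(+/+), 11.5 and 17.3 in Pax5(+/-), 12.5 and 11.8 in Pax5(R31Q/-), and 37.5 and 71.1 TPM in Pax5(fl/fl) Vav-Cre. Its log2 difference was 2.5 (standard error 0.32, limma adjusted p = 0.000831). Cybb overlaps Gm33784 in the annotation, so its reads may be shared. The monocyte surface protein Ly6c2 rose from 18.6 ± 3.16 to 91.0 ± 11.5 TPM (SD, n = 2; log2 difference 2.24, standard error 0.25, adjusted p = 0.000494 from limma), a value made uncertain by its near-identical neighbor Ly6c1. Cd33, an inhibitory sialic acid-binding receptor, rose from 3.17 ± 0.53 to 12.5 ± 4.62 TPM (SD, n = 2; log2 difference 1.66, standard error 0.25, adjusted p = 0.0019 from limma). Its fold was close to the limit of 3 and fell under it with a pseudocount of 5 (log2 difference 1.08) or without Pax5(+/+) library 1 (1.53), which left 5 genes called higher. The lysosomal macrophage protein Cd68 was at 20.4 TPM in library 1 and 36.8 TPM in library 2, against 12.1 to 16.2 TPM in the others (log2 difference 0.90, adjusted p = 0.0349 from limma), and it lost this call when only the 2 genotypes entered the fit (adjusted p = 0.139) or without a filter on low TPM (adjusted p = 0.142). It also lost it without Pax5(+/+) library 1 (adjusted p = 0.172), Pax5(+/+) library 2 (0.0736) or Pax5(fl/fl) Vav-Cre library 2 (0.0901).

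Library 2 was the highest of all 8 libraries for 5 of the 31 genes, Fcer1g, Tyrobp, Ly6c2, Cd68 and Cybb, a share below the 22.2% of all genes tested. The TPM in library 1 was 0.88 times that in library 2 for Fcer1g, 0.84 times for Ly6c2 and 0.78 times for Tyrobp, near the median of 0.87 over the 13008 genes tested that were above 0 in both, and it was 0.55 times for Cd68 and 0.53 times for Cybb. Markers of plasmacytoid dendritic cells, which also express Tyrobp, Fcer1g and Ly6c2, summed to 567 TPM in library 1 and 972 TPM in library 2, against 174 to 246 TPM in the others. Of these 6 markers, 4 were above all other genotypes in both libraries and none was at 0. Bst2 was at 325 and 499 TPM, Cox6a2 at 123 and 206 TPM and Siglech at 54.4 and 158.5 TPM in libraries 1 and 2, with Ccr9 the other of the 4. Tcf4, a transcription factor of this lineage and of B cells, was at 59.0 TPM in library 1, the lowest of the 8, and at 87.5 TPM in library 2, against 67.3 to 97.5 TPM in the others, and Klk1 was at 1.04 and 5.39 TPM, against up to 5.93 TPM. The 11 T and NK markers summed to 79.6 and 55.9 TPM, against 15.3 to 27.4 TPM in the others. Of them 5 were above all other genotypes in both libraries and 2 below. Nkg7 led the former with 56.2 and 24.7 TPM, and of the latter Klrb1c was at 6.17 and 6.35 TPM, against 8.73 to 15.7 TPM. Cd3d, Cd3e and Cd3g stayed under 1 TPM in every library, and Gzmb was at 0 in both Pax5(fl/fl) Vav-Cre libraries. The 6 dendritic markers summed to 81.8 and 112 TPM, against 95.7 to 206 TPM, most of it H2-Ab1, which was lower in both libraries than in the other 6. Itgax was above the others in both, at 13.7 and 20.5 TPM, as were Zbtb46 at 0.60 and 0.40 TPM and Clec9a at 0.39 and 1.89 TPM, levels near 0. The 6 multipotent progenitor markers summed to 451 and 409 TPM, against 69.6 to 131 TPM, most of it Flt3 at 385 and 356 TPM. The part of these cells in the values of the receptor genes was not tested.

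**Figure D5:**
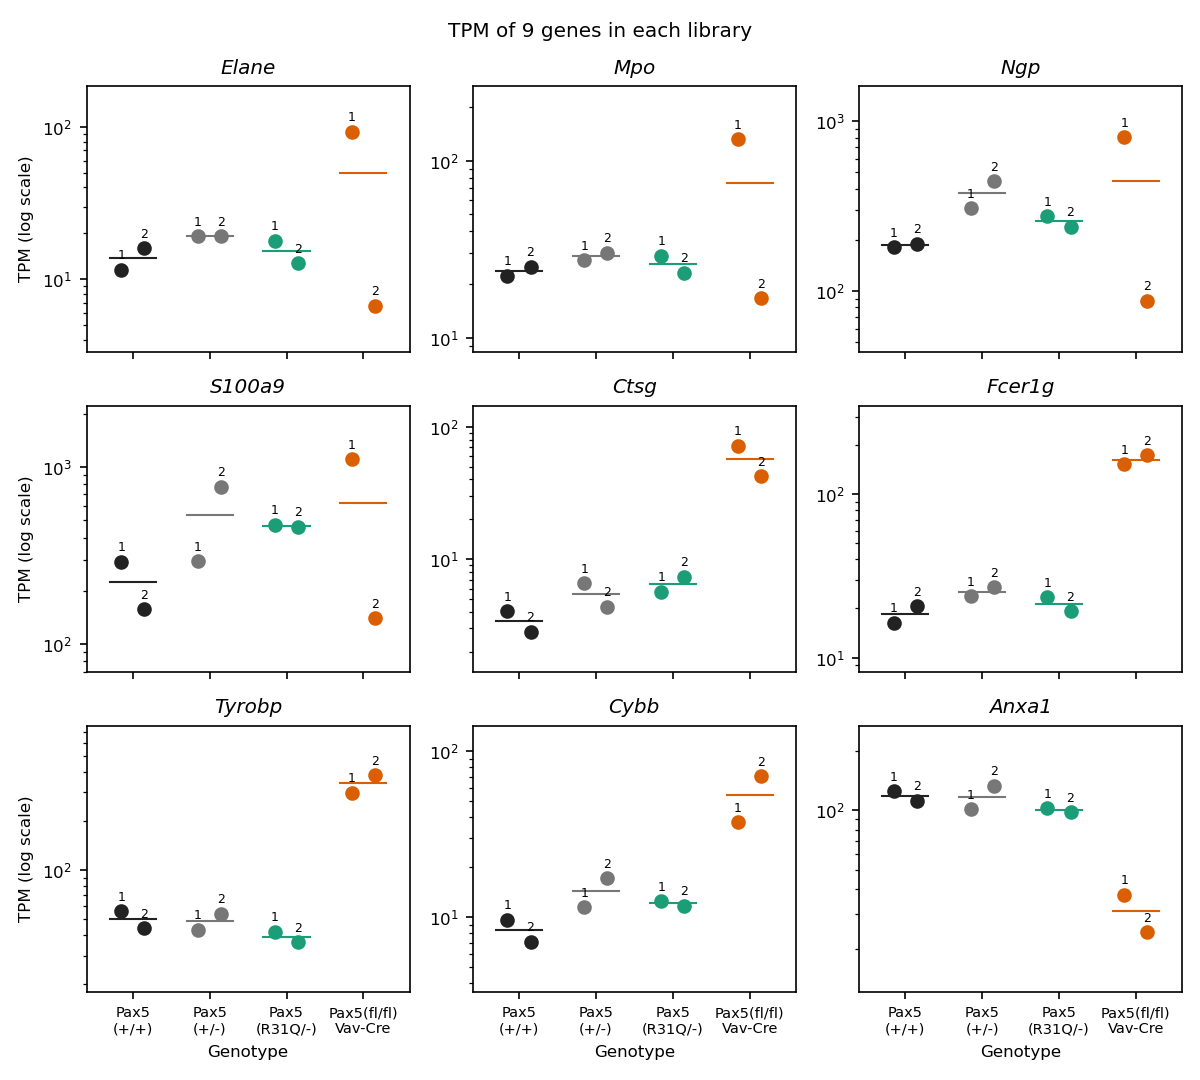
Points give TPM (vertical axes, log scale) of 9 genes in each library, labeled 1 or 2, by genotype (horizontal axes), and lines give the mean of the 2 libraries. The Pax5(fl/fl) Vav-Cre libraries part for Elane, Mpo, Ngp and S100a9 and lie together for Ctsg, Fcer1g, Tyrobp and Cybb, at 153 and 174 TPM for Fcer1g, and for Anxa1.

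The C/EBP factors were weakly expressed. Cebpa, which starts the granulocyte program, was at 2.29 TPM or less in the other genotypes and at 3.32 and 2.63 TPM in the Pax5(fl/fl) Vav-Cre libraries (log2 difference 0.76, standard error 0.29, adjusted p = 0.0747 from limma). Cebpe, which drives the later granule genes, had the order of those genes, with 11.3 TPM in library 1, 1.37 TPM in library 2 and 1.8 to 5.54 TPM in the others. Cebpb, a factor of macrophages and of emergency granulopoiesis, was at 6.5 and 2.75 TPM, against 2.23 to 3.26 TPM. Lyz2, the lysozyme of granulocytes and macrophages, ranged from 60.1 to 205 TPM in the other genotypes and was at 233 TPM in library 1 and 57.0 TPM in library 2. Lgals3, a galectin, was at 15.1 and 4.13 TPM, against 3.99 to 10.4 TPM. Neither passed the test in the pooled comparison (adjusted p = 0.50 and 0.28 from limma). The chemokine gene Ccl6, which overlaps E230016K23Rik, showed no such split, with 5.42 and 3.6 TPM against 2.95 to 8.53 TPM.

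The set also held a gene that fell in both libraries. Anxa1, annexin A1, a phospholipid-binding protein that limits neutrophil recruitment and is also made by other cells, was at 125 and 112 TPM in Pax5(+/+), 101 and 133 in Pax5(+/-), 102 and 97.9 in Pax5(R31Q/-), and 37.4 and 24.3 TPM in Pax5(fl/fl) Vav-Cre. Neither low library overlapped any other, and the mean was 0.26 times that of Pax5(+/+) (log2 difference -1.94, standard error 0.21, adjusted p = 0.000433 from limma). It was the most abundant gene of the set after S100a8, S100a9 and Ngp in Pax5(+/+) cells. Itgam, which codes for the integrin alpha M chain CD11b, was at 23.4 and 22.4 TPM in Pax5(+/+), 17.5 and 17.5 in Pax5(+/-), 17.1 and 14.1 in Pax5(R31Q/-), and 20.9 and 10.9 TPM in Pax5(fl/fl) Vav-Cre (log2 difference -0.56, adjusted p = 0.14 from limma). Library 2 was the lowest of the 8.

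In Pax5(R31Q/-) cells, 0 of the 31 genes passed an adjusted p of 0.05 against Pax5(+/+) in limma, where 1.62% of all genes were higher and 2.55% lower, and 0 were called (background 0.275% and 0.558%). At an unadjusted p under 0.05 there was 1 gene (background 18.8%), Ctsg, at 6.52 ± 1.19 against 3.43 ± 0.85 TPM (SD, n = 2; log2 difference 0.77, adjusted p = 0.23 from limma). Both Pax5(R31Q/-) libraries were above both Pax5(+/+) libraries for 20 of the 31 genes (background 34.6%) and below for 3, Tyrobp, Itgam and Anxa1 (25%). The median log2 difference was 0.42, beside 0.04 for all genes. S100a8 had the largest, 1.18 with a standard error of 0.77 (adjusted p = 0.44 from limma). The receptor genes high in Pax5(fl/fl) Vav-Cre cells gave no such difference here, with Fcer1g at 21.3 ± 2.93 against 18.5 ± 2.96 TPM and Tyrobp at 39.1 ± 4.22 against 50.1 ± 8.54 TPM (SD, n = 2).

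In Pax5(+/-) cells, compared with the same Pax5(+/+) libraries, 0 of the 31 genes passed an adjusted p of 0.05 in limma (background 0% higher and 0.0223% lower), and 3 had an unadjusted p under 0.05 (background 6.06%). These were Mmp8 with a log2 difference of 1.2, Ccl6 with 0.83 and Fcer1g with 0.44 (adjusted p = 0.70, 0.67 and 0.70 from limma). Both Pax5(+/-) libraries were above both Pax5(+/+) libraries for 24 of the 31 genes (background 21.1%) and below for 1, Itgam (14.9%). The median log2 difference was 0.70, beside 0.02 for all genes. Retnlg had the largest, 1.3 with a standard error of 0.75 (adjusted p = 0.97 from limma), and its Pax5(+/-) libraries were at 48.9 and 103 TPM, against 25.2 and 29.8 TPM in Pax5(+/+). The shared standard errors in both comparisons include the gap between the Pax5(fl/fl) Vav-Cre libraries, and the counts were 0 also when only the 2 genotypes compared entered the fit and with limma-voom on the reads recovered from the TPM values.

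Compared directly, Pax5(fl/fl) Vav-Cre cells were higher than Pax5(R31Q/-) cells for 7 of the 31 genes and lower for 1 at an adjusted p under 0.05 from limma (background 14.7% and 19.9%), with 5 called higher and 1 lower (2.24% and 2.72%). The 7 were Ctsg, Fcer1g, Tyrobp, Ly6c2, Cybb, Cd33 and Cd68, and the 1 was Anxa1. Tyrobp was at 339 ± 58.3 against 39.1 ± 4.22 TPM (SD, n = 2), a log2 difference of 3.08 (standard error 0.19, adjusted p = 5.13e-05 from limma). Anxa1, at 37.4 and 24.3 against 102 and 97.9 TPM, had a log2 difference of -1.70 (standard error 0.21, limma adjusted p = 0.00106), and its fold came to under 3 with another scaling of the libraries or a pseudocount of 5. Ctsg was 8.75-fold higher, with a log2 difference of 2.91 (adjusted p = 0.000429 from limma).

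Other genes of the myeloid program were read from a further list of 36 genes, of which 35 were tested. This list too was set with earlier results of these data known, so its counts are a description and not independent support. For counts in Pax5(fl/fl) Vav-Cre, Adgre1, Clec4d, Clec7a, Cx3cr1 and Fcgr4 were left out because they were below 1 TPM in both libraries of at least 1 genotype, so that a gene could pass the filter through the genotype where it was high. Of the other 30, 15 were higher and 4 lower than in Pax5(+/+) at an adjusted p under 0.05 from limma, and 8 were called higher and 1 lower. The background over the 11687 genes with at least 1 TPM in every genotype was 15% and 19.1%, and 2.54% and 3.35%. The median log2 difference was 0.85 for the 30 genes and -0.12 for the 11687. With library 1 alone 22 of the 30 were higher and 4 lower by adjusted p (background 14.5% and 32.5%), and 12 were called higher and 1 lower (2.83% and 4.14%). With library 2 alone 15 were higher and 4 lower (15.6% and 14.2%), and 7 were called higher and 1 lower (2.82% and 3.03%). Library 1 was the highest of the 8 libraries for 15 of the 30 (background 11.7%) and library 2 for 8 (22.2%). On the log2(TPM + 1) scale, 5 of the 30 were more than 2-fold higher in library 1 than in library 2 (background 1.4%), and Mpeg1 was more than 2-fold higher in library 2 (3.95%), at 270 against 122 TPM. The 5 genes higher in library 1, all of them known from neutrophils or their precursors, were singled out after their values were seen. Fcnb, a ficolin, was at 22.8 TPM in library 1 and 1.13 TPM in library 2, Ms4a3 at 8.40 and 0.56 TPM, Ly6g at 9.62 and 1.84 TPM, Csf3r at 6.90 and 1.21 TPM and Cxcr2 at 4.98 and 0.93 TPM. Those with the lowest adjusted p were Prss57, a granule serine protease, which rose from 2.62 ± 0.35 to 33.5 ± 0.17 TPM (SD, n = 2; adjusted p = 1.41e-05 from limma), and Trem1, an activating receptor that signals through Tyrobp, from 7.55 ± 1.30 to 65.2 ± 4.54 TPM. Ncf1, a cytosolic subunit of the NADPH oxidase, rose from 16.9 ± 2.54 to 74.2 ± 4.05 TPM, the leukocyte-specific transcript Lst1 from 12.4 ± 2.16 to 74.0 ± 18.7 TPM, and Ly86, the partner of the Toll-like receptor homolog Cd180, from 35.6 ± 5.02 to 194 ± 57.7 TPM. Gfi1, a repressor needed for neutrophil development and also used in lymphoid cells, fell from 48.1 ± 3.97 to 15.2 ± 0.03 TPM (log2 difference -1.60, adjusted p = 0.000105 from limma, n = 2). In Pax5(R31Q/-) it was at 19.1 TPM, and Pax5(fl/fl) Vav-Cre differed from Pax5(R31Q/-) by -0.31 on the log2 scale (adjusted p = 0.0987 from limma). Spi1, which codes for PU.1, was at 255 and 240 TPM in the Pax5(fl/fl) Vav-Cre libraries and at 113 to 159 TPM in the others (log2 difference 0.88, adjusted p = 0.00546 from limma). The macrophage growth factor receptor Csf1r was at 10.4 and 5.04 TPM, against 2.36 ± 0.10 TPM in Pax5(+/+) (log2 difference 1.31, adjusted p = 0.0117 from limma, n = 2). In Pax5(R31Q/-) cells 2 of the 35 genes were higher than in Pax5(+/+) and 2 lower (background 1.62% and 2.55%), with 15 at an unadjusted p under 0.05 (18.8%). Trem1 was 2.09-fold and Klf4 1.99-fold higher in mean TPM (adjusted p = 0.0211 and 0.044 from limma), and Gfi1 and Cyba, the small membrane subunit of the NADPH oxidase, had log2 differences of -1.29 and -0.74 (adjusted p = 0.0026 and 0.00829). In Pax5(+/-) cells 0 of the 35 passed an adjusted p of 0.05 in limma (background 0% and 0.0223%), with 5 at an unadjusted p under 0.05 (6.06%).

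Binding of Pax5 near these genes was read from deposited ChIP-seq peak lists of short-term cultured pro-B cells, 41983 peaks of Rag2(-/-) cells, in which Pax5 is wild type, and 18821 peaks of Pax5(R31Q/-) cells. Each list comes from 1 library with no replicate check. A peak met the window of 1 kb on each side of an annotated start site for 4 of the 32 genes in the Rag2(-/-) list, Cebpb, Fcgr3, Tyrobp and Anxa1, against 68.2% of the 12881 tested genes with an annotated start. In the Pax5(R31Q/-) list there were 5, Cebpa, Cebpb, Fcgr3, Fcer1g and Tyrobp, against 73.2%. The windows of the 4 azurophil, the 10 later granule and the calprotectin genes met no peak in either list. Farther out, within 10 kb of the gene, Lcn2, Mmp9, Hp and Chil3 had peaks in both lists and Ltf in the Pax5(R31Q/-) list. Itgam, Cd14, Cd68 and Cybb, also without a peak in the start window, had peaks in the gene or within 10 kb in both lists. Ly6c2 and Lyz2 had them in the Rag2(-/-) list only. The Anxa1 peak, chr19:20390353-20390747, was present only in the Rag2(-/-) list, and the Fcer1g peak, chr1:171234103-171234507, only in the Pax5(R31Q/-) list, and both reach across the start site into the gene. The 250 bases before each start are printed with the bases inside the peak in capitals, 76 for Anxa1 and 158 for Fcer1g, with source and direction as above.
Anxa1, chr19:20390672-20390921, minus strand: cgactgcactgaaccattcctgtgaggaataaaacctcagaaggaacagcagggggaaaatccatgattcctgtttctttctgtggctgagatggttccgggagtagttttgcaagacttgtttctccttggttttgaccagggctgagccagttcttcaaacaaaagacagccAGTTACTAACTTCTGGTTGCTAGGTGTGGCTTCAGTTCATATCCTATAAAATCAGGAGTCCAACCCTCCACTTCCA
Fcer1g, chr1:171234350-171234599, minus strand: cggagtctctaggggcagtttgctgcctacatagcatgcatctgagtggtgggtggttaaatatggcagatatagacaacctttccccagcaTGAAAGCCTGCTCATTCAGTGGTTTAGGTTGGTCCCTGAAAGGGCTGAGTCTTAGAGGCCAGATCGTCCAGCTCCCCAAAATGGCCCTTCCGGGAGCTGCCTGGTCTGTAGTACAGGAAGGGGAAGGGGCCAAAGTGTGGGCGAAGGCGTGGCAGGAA

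The deposited lists hold positions without heights, so the peaks could not be compared in strength. Cebpa, at up to 3.32 TPM in any library, had a peak at its start, chr7:35119071-35119411, only in the Pax5(R31Q/-) list. Tyrobp had one before its start in both lists.

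Promoter sequences of RefSeq were found for 27 of the 32 genes, with 29 start sites in all. In the 250 bases before the start, 13 of the 29 promoters held the PU.1 motif GAGGAAG on either strand, against 10.6% of 32851 promoters of the genome. The C/EBP motif TTGCNNAA was in 10 of 29, against 9.56%. The genes with the PU.1 motif were Mpo, Elane, Prtn3, Ctsg, Lcn2, Mmp8, S100a8, Fcgr3, Itgam, Cd33 and Ly6c2, and those with the C/EBP motif were Ngp, Ltf, Lcn2, Mmp8, Retnlg, S100a9, Fcgr3, Cd68 and Anxa1. These motif matches are a description of the letters only.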

How the data were processed

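RNA-seq values were used as deposited. Per the study's methods and the submitters' processing notes, the authors removed ribosomal reads, aligned with STAR 2.4.2 to mm10, counted uniquely mapping reads on RefSeq genes and computed TPM, which sum to 1000000 in each library. Strand-specific counting is not given in the sources used here, so overlapping and near-identical genes may share reads. Whole reads behind the TPM were recovered for 18206 of 18206 genes above 0 in at least 2 libraries (tolerance 1e-08). The deposited ChIP-seq peak lists give a start and an end per peak, and the caller named is MACS.

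Groups came from the labels, which number no replicates, and libraries 1 and 2 are in accession order. The experiment number of Pax5(fl/fl) Vav-Cre library 1 lies outside the consecutive run of all other RNA-seq libraries, and whether this marks a batch was not tested. limma 3.58.1 (R 4.3.3) with eBayes and a mean trend was run on log2(TPM + 1) over the 13436 genes with at least 1 TPM, and 385 immunoglobulin genes were left out of calls. Simulated data of the Pax5(fl/fl) Vav-Cre and Pax5(+/+) comparison gave every library the same spread, with no gap between the Pax5(fl/fl) Vav-Cre libraries. In them 200 genes changed 4-fold were recovered to 100% with 29 false calls among 12996 genes. At 2-fold 39.5% were recovered with 9 false calls among 13020 genes, so many changes of that size are missed. Genes that differ between the Pax5(fl/fl) Vav-Cre libraries can be missed at larger folds. Prtn3 was, at 4.96-fold in mean TPM (adjusted p = 0.207 from limma). Every listed gene is accounted for. The level of 1 of the B-lineage markers is not reported here. Of the other myeloid genes, the 6 with the lowest adjusted p were named, with Spi1 and Csf1r, and after the values were seen also those that differed 2-fold between the Pax5(fl/fl) Vav-Cre libraries, those left out of counts, and those past the adjusted p in Pax5(R31Q/-). The genes and lists were chosen with earlier results of these data known, and counts of Pax5(+/-) and Pax5(R31Q/-) libraries above or below both Pax5(+/+) libraries were added after the values were seen. Coordinates, start sites and promoters came from RefSeq on GRCm38.p6, read with Python 3.11.15. Alternatives changed the pseudocount, filter, libraries in the fit, scaling, variance trend, thresholds, unit, peak window and each library left out.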

Additional observations from a re-analysis of the deposited data

How the results depend on the processing

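For Pax5(fl/fl) Vav-Cre against Pax5(+/+), 246 of 248 values of the 31 genes kept their direction and their side of an adjusted p of 0.05 under the 8 alternatives that kept all libraries of these 2 genotypes, and the other 2 were Cd68. Among the 8 was the fit without the Pax5(+/-) and Pax5(R31Q/-) libraries. The fold required for a call was lost by Cd33 with a pseudocount of 5 (log2 difference 1.08) and without Pax5(+/+) library 1 (1.53) or Pax5(fl/fl) Vav-Cre library 1 (1.30), each leaving 5 genes called higher in place of 6. Leaving out 1 library changed more. Without Pax5(fl/fl) Vav-Cre library 1, 19 genes turned to the negative side, and without Pax5(+/+) library 2, Chil3 did, at -0.05. The log2 differences with 1 library left out ranged from -0.49 to 2.43 for Mpo, -0.93 to 2.68 for Elane, -0.13 to 3.06 for Prtn3, -1.07 to 2.11 for Ngp, -1.07 to 2.15 for Camp, -0.65 to 2.53 for Ltf, -1.10 to 2.27 for Lcn2, -0.39 to 1.06 for Mmp8, -0.84 to 1.79 for Mmp9, -0.51 to 2.45 for Cd177, -0.44 to 2.21 for Retnlg, -0.41 to 2.64 for Hp, -0.85 to 1.09 for Chil3, -0.73 to 1.81 for S100a8, -0.62 to 2.36 for S100a9, -0.31 to 2.06 for Cebpe, -0.65 to 0.96 for Fcgr3, -0.47 to 1.54 for Lyz2 and -0.11 to 1.55 for Lgals3. The genes of the set called higher numbered 5 to 19 and those past the adjusted p 6 to 23 higher and 1 to 6 lower, and against Pax5(R31Q/-) 5 to 14 were called higher, 0 to 1 lower, and 5 to 21 and 1 to 10 passed the adjusted p. The high counts came without Pax5(fl/fl) Vav-Cre library 2 and the high counts of lower genes without library 1. Against Pax5(R31Q/-), Anxa1 was the gene called lower, and 0 were with a pseudocount of 5, median-ratio scaling or quantile normalization.

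Over all genes, a pseudocount of 5 gave 202 called higher and 283 lower in Pax5(fl/fl) Vav-Cre against Pax5(+/+), 11 and 37 in Pax5(R31Q/-), and 151 and 215 in Pax5(fl/fl) Vav-Cre against Pax5(R31Q/-), from 386 and 463, 37 and 75, and 301 and 366. A fold threshold of 2 gave 746 and 905, 103 and 163, and 635 and 895. With no filter 22 genes were called higher in Pax5(R31Q/-). In Pax5(+/-), 3 genes were called lower, and 0 when only the 2 genotypes entered the fit, 5 with either scaling, 6 without a variance trend and 8 when limma-voom was run on recovered reads. With 1 library left out these counts were 1 to 1 in Pax5(+/-), 18 to 34 higher and 43 to 93 lower in Pax5(R31Q/-), and 324 to 552 lower in Pax5(fl/fl) Vav-Cre against Pax5(R31Q/-). The causes were not tested. The scaling moved the median of all genes from -0.109 to -0.024 or -0.013 in Pax5(fl/fl) Vav-Cre against Pax5(+/+), and from -0.127 to -0.008 or -0.011 against Pax5(R31Q/-). With the whole peak required inside the window, 3 genes had a peak of the Pax5(R31Q/-) list at the start in place of 5. No paired analysis was possible because the labels give no replicate numbers.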
